A study of Mus musculus with 764 samples.

Results

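The expression of 40 genes of the cell division cycle was followed in single IL-10-producing CD4+ T cells. The genes were taken from a fixed list by name, and all 40 were found among the 23995 gene rows. They were divided by phase into 17 S-phase members (Mcm2, Mcm3, Mcm4, Mcm5, Mcm6, Mcm7, Pcna, Tyms, Rrm1, Rrm2, Cdc6, Cdc45, Gins2, Uhrf1, E2f1, Ccne1 and Ccne2) and 23 mitotic members (Mki67, Top2a, Birc5, Ccnb1, Ccnb2, Ccna2, Cdk1, Cdc20, Plk1, Aurka, Aurkb, Bub1, Bub1b, Kif11, Kif20a, Kif23, Cenpe, Cenpf, Tpx2, Nusap1, Ube2c, Prc1 and Ttk).

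The cells carried a green fluorescent reporter of Il10, and were sorted from the spleen or the small intestine (SI) of mice injected with an antibody against CD3, which activates T cells. Both tissues therefore came from treated mice, and no untreated cells were analysed here. Sequencing was done by SMART-seq2, which reads full-length cDNA and does not count molecules. The labels name no animal, age or strain, so each tissue is 1 sample, no difference between tissues has a replicate check, and intervals (95%, exact binomial for shares) cover counting error only.

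Of 764 cells, the 719 with at least 160000 reads on genes were used. Plate codes and wells in the labels divided the spleen cells into 3 sets, columns 1 to 12 of plate p1 (left p1), columns 13 to 24 of p1 (right p1) and p2. SI cells lay in columns 13 to 24 of p2, and an effect of these wells and one of the tissue cannot be told apart. Median reads per cell were 323094 in SI, 362530 in left p1, 353926 in right p1 and 321851 in p2 spleen. The T cell genes Cd3e and Cd4 had a read in every cell, and each of 16 genes of other cell types (B cells, myeloid cells and epithelium among them) had a read in 0% to 9.14% of SI cells (median over the genes 0.571%) and 0% to 9.93% of spleen cells (median 0.460%). Foxp3, the lineage factor of regulatory T cells, had a read in 65.7% of left p1 cells, against 22.3% in right p1, 7.82% in p2 spleen and 8.57% in SI. The study included Foxp3-expressing cells as a control, and the labels do not say which wells hold them. Shares of cells and means over all cells are therefore mostly given for each spleen set as well. Values for cells grouped by the members read in them pool the spleen sets unless a spleen set is named.

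A cell that divides copies its DNA in S phase and separates the copies in mitosis. Before S phase, Cdc6 helps to load the Mcm2 to Mcm7 helicase onto DNA, cyclin E and E2F factors drive entry, and enzymes such as ribonucleotide reductase then supply the building blocks. Later, cyclin A, cyclin B and Cdk1, the Aurora and Polo kinases and the kinesin motors build the spindle, and Cdc20 with the anaphase-promoting complex ends mitosis. S-phase genes are known as targets of E2F factors, and many mitotic genes as targets of the MuvB complex through the CHR element and of NF-Y through CCAAT boxes. Resting T cells express little of either group, and cells that have met antigen or anti-CD3 can divide rapidly.

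The promoters of the members were therefore searched on both strands for TTTGAA (CHR), CCAAT (NF-Y), and TTTCGCG or TTTGGCG (2 forms of the E2F site). The RefSeq promoter table (build GRCm38.p6, 250 bases before to 50 after each start) held 33 of the 40 members, without Mcm4, Gins2, Ccne2, Ccna2, Aurkb, Kif20a and Tpx2. Printed here are the 200 bases before the start of 4 mitotic members, shown because they hold TTTGAA near the start, and of 2 S-phase members that hold an E2F form. Capitals mark every match of the 4 motifs on either strand (those on the opposite strand read as the reverse complement), and neighbouring capitals can belong to overlapping matches.
Cdc20 (chr4:118437344-118437543, minus strand): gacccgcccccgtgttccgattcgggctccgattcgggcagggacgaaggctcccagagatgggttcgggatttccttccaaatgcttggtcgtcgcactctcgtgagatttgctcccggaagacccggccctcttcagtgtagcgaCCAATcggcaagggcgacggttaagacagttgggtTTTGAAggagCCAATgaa
Cdk1 (chr10:69352913-69353112, minus strand): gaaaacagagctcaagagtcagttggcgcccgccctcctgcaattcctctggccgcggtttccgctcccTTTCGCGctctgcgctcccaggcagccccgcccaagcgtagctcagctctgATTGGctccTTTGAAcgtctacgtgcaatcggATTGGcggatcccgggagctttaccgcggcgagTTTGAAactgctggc
Top2a (chr11:99024190-99024389, minus strand): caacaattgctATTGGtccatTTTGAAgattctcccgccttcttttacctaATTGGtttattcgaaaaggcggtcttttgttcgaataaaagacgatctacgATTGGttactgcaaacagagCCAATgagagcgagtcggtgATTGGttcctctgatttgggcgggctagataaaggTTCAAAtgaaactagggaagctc
Ube2c (chr2:164769729-164769928, plus strand): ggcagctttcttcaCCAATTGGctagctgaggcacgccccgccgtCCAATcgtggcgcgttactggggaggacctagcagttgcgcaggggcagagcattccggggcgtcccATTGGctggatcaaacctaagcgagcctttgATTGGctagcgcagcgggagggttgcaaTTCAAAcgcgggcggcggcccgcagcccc
Mcm6 (chr1:128359706-128359905, minus strand): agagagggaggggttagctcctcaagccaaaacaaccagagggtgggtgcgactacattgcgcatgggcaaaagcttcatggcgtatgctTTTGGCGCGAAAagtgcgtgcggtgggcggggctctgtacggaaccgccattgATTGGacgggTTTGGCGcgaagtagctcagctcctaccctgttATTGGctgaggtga
Mcm5 (chr8:75109309-75109508, plus strand): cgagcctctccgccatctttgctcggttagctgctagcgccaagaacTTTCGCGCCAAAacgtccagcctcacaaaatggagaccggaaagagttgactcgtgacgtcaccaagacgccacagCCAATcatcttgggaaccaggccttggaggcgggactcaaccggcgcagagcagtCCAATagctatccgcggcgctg

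TTTGAA was present in 14 of 19 mitotic promoters (73.7%) and in 2 of 14 S-phase promoters (Cdc45 and Mcm2, 14.3%). It was present in 20.2% of all 27025 genes of the table, and in 14.3% of the 6579 that were measured here at a mean of 10 CPM or more (read counts scaled to the same total in every cell). In 13 of the 14 mitotic promoters with TTTGAA, at least 1 match began between 60 bases before the start and the end of the window. CCAAT was present in 17 of 19 mitotic promoters (89.5%) and in 10 of 14 S-phase promoters (71.4%), against 43.02% of the measured genes. TTTGAA and CCAAT occurred together in 14 mitotic promoters and in 6.95% of measured genes. TTTCGCG or TTTGGCG was present in 5 S-phase promoters (Mcm3, Mcm5, Mcm6, Mcm7 and Uhrf1, 35.7%), in 1 mitotic promoter (Cdk1) and in 5.49% of measured genes. TTTGAA thus fell largely along the division into phases, whereas CCAAT was common in both phases. The 2 E2F forms searched were absent from 9 of 14 S-phase promoters, and other forms of the site were not searched. A match is a string of letters, and binding was not measured.

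**Figure D1:**
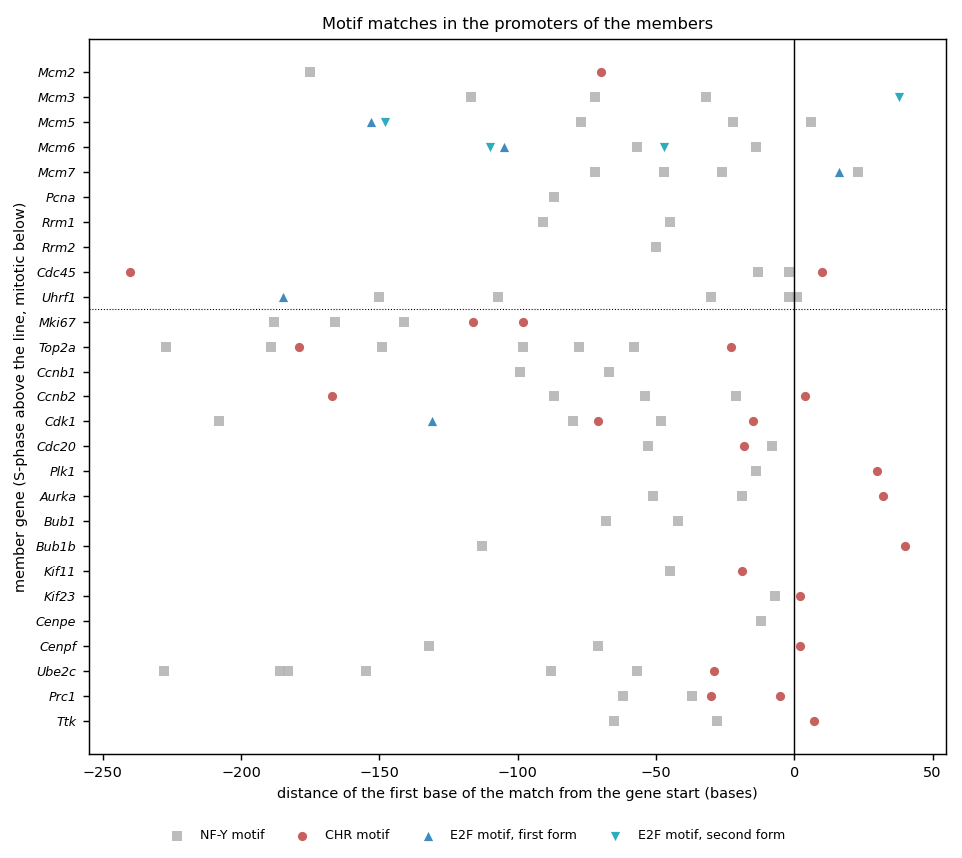
Position of motif matches in the promoters of the 27 members with at least 1 match. The x axis gives the distance in bases of the first base of a match from the gene start, and each mark is 1 match on either strand. CHR matches (circles) lie mostly near the start of mitotic members below the line, and E2F forms (triangles) mostly in Mcm genes above it.

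The members were next examined for whether they were read together in the same cells. A member was counted in a cell when it had 10 or more reads there. A cell was said to hold the S-phase set when at least 9 of the 17 S-phase members were counted, and the mitotic set when at least 12 of the 23 mitotic members were. Mitotic members were mostly either few or many in a cell, more sharply in SI than in the spleen. In SI, 79.4% of cells had 0 to 3 of them, 28 cells had 17 or more, and 8 cells (4.57%) lay in between. In the spleen, 66.7% had 0 to 3 and 12.9% had 4 to 16. S-phase members were more graded. In SI 71.4% and in the spleen 52.9% of cells had 0 to 3 of the S-phase members, and 16.6% and 28.1% lay between these and the cells with all but 6 or fewer (4 to 10 members, as 4 to 16 for the mitotic ones). Close to the limit, 42 spleen cells lay 1 or 2 members short of an S-phase set and 39 had 9 or 10 members, against 8 and 8 cells at the limit of the mitotic set.

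**Figure D2:**
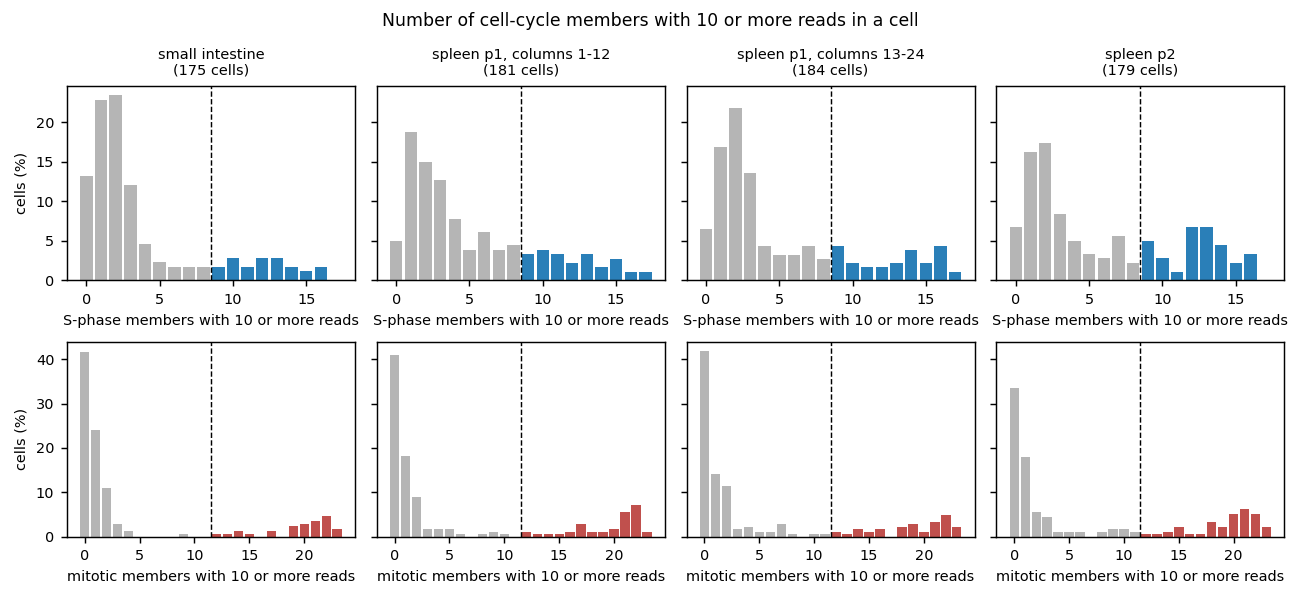
Share of cells (y axis, %) by number of S-phase members (top) or mitotic members (bottom) with 10 or more reads (x axis) in SI and the 3 spleen sets. Coloured bars right of the dashed line hold the set, and most mitotic counts lie near 0 or at 17 and above, while the S-phase counts are spread out.

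Fewer cells held a set in SI than in the spleen. The S-phase set was held by 16.6% of SI cells (29 cells, interval 11.4% to 22.9%) and by 26.1% of spleen cells (22.5% to 30.01%). Within the spleen it was held by 22.7% of left p1, 23.4% of right p1 and 32.4% of p2 cells (25.6% to 39.8%). The mitotic set was held by 18.9% of SI cells (33 cells, 13.4% to 25.5%) and 25.4% of spleen cells (21.8% to 29.2%), with 24.3% in left p1, 22.3% in right p1 and 29.6% in p2. SI was the lowest of the 4 sets of cells and p2 spleen the highest in both phases. For the single phases, the SI interval overlapped that of the pooled spleen, and only the S-phase intervals of SI and p2 spleen were apart. Either set was held by 22.9% of SI cells (16.9% to 29.8%) and 36.2% of spleen cells (32.2% to 40.4%), with 33.7%, 32.6% and 42.5% in left p1, right p1 and p2 (35.1% to 50.1%), and these SI and pooled or p2 spleen intervals did not overlap.

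The shares were also taken at equal depth, and the S-phase share was then lower in the spleen but not in SI. The number of reads needed to count a member was kept, so depth and this limit were not told apart. When each cell was thinned to 160000 reads, the S-phase set was held by 22.1% of spleen cells (18.6% to 25.8%) and still by 16.6% of SI cells, with 20.4%, 19.02% and 26.8% in left p1, right p1 and p2 spleen. The S-phase intervals of p2 spleen (20.5% to 33.9%) and SI (11.4% to 22.9%) then overlapped. Median reads before thinning were similar in these sets, at 321851 in p2 spleen and 323094 in SI. Why only the p2 spleen share moved was not tested. The mitotic share hardly moved, at 25.2% in the spleen and 18.9% in SI. Either set was then held by 35.3% of spleen cells (31.3% to 39.5%) and 22.9% of SI cells (16.9% to 29.8%), and these intervals stayed apart.

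Many dividing cells held both sets. Of the 40 SI cells with a set, 7 held the S-phase set only (17.5%, 7.34% to 32.8%), 22 held both (55%, 38.5% to 70.7%) and 11 held the mitotic set only (27.5%). Of the spleen cells with a set, 59 held the S-phase set only (29.9%, 23.6% to 36.9%), 83 both (42.1%) and 55 the mitotic set only (27.9%). The intervals of the 2 tissues overlapped in every class. S-phase-only cells were 27.9%, 31.7% and 30.3% of cells with a set in left p1, right p1 and p2 spleen.

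The levels behind these classes are given as a description, since the classes were set by the same members. The mitotic sum, the CPM of the 23 members added in a cell, had a median of 14362 CPM in SI cells with the mitotic set only and 15834 CPM in such spleen cells, 12383 and 12732 CPM in cells with both sets, 779 and 891 CPM in cells with the S-phase set only, and 28.99 and 15.7 CPM in cells with neither. The S-phase sum had a median of 5722 CPM in SI and 7585 CPM in spleen cells with the S-phase set only, 4697 and 5562 CPM with both, 1550 and 1166 CPM with the mitotic set only, and 362.5 and 621 CPM with neither. Thus cells of the mitotic class had an S-phase sum above that of cells with neither set in both tissues. As a measure of background, the 16 genes of other cell types were added in the same way, scaled to the number of members, and their 99th percentile over cells was taken as a limit. The S-phase sum lay above that limit of 746 CPM in 39.4% of SI and 60.5% of spleen cells, with 62.4%, 56.5% and 62.6% in left p1, right p1 and p2 spleen. The mitotic sum lay above its limit of 1010 CPM in 22.3% of SI and 34.01% of spleen cells, with 32.04%, 30.98% and 39.1% in the spleen sets. The S-phase share above background was thus larger than the share with a set, by more than the mitotic one.

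**Figure D3:**
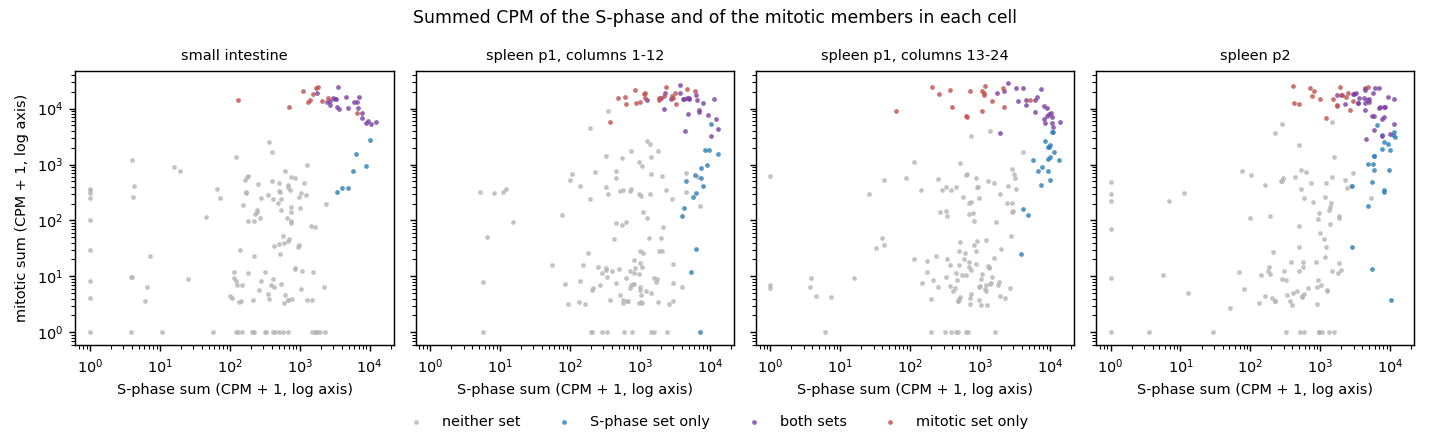
Summed CPM of the S-phase members (x axis) and of the mitotic members (y axis) in each cell, both with 1 added and on log axes, in SI and the 3 spleen sets. Cells with the S-phase set only (blue) lie at the right, cells with both sets (purple) in the upper right corner and cells with the mitotic set only (red) at the top left of it, and cells with neither set (grey) fill the lower part.

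Across cells, the S-phase and mitotic sums had a Spearman correlation of 0.44 in SI, 0.42 in left p1, 0.48 in right p1 and 0.56 in p2 spleen. Cells of a set share plate, tissue and library depth, and the sums correlated with total reads by between -0.18 and 0.13. Each member was compared with the sum of its own phase without itself and with the sum of the other phase, as the mean over the 4 sets of cells. All 23 mitotic members and 16 of 17 S-phase members stood closer to their own phase. The exception was Rrm2, the small subunit of ribonucleotide reductase, at 0.58 with either sum. Rrm1, its large subunit (0.56 and 0.54), and Cdc45 (0.54 and 0.51) were nearly as even, whereas Mcm2 (0.58 and 0.33), Mcm4 (0.51 and 0.26) and Cdc6 (0.47 and 0.24) were not.

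To order the members along the cycle, the cells were classed by the other members only, leaving out the gene under study. Among the genes of entry and origin loading, Cdc6 had a mean of 203.9 CPM in SI and 220.9 CPM in spleen cells with the S-phase set only, 86.1 and 72.2 CPM with both sets, and 0 and 0.291 CPM with the mitotic set only. E2f1, an activator of S-phase genes, had 29.6 and 54.3 CPM with the S-phase set only, and 0 CPM in mitotic-only cells of either tissue. Ccne2, one of the E-type cyclins, had 16.1 and 33.6 CPM in the S-phase class and 9.25 and 27.02 CPM with both sets. Ccne1, the other one, had 155.9 CPM in S-phase-only and 129.9 CPM in double-set spleen cells, but 6.94 and 53.9 CPM in the SI cells. The first SI value rests on 7 cells. In mitotic-only cells of either tissue, each of these genes had 10 or more reads in 6.38% of cells or fewer.

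The helicase and clamp genes were also highest in S-phase-only cells. Mcm2 had 568.2 CPM in SI and 710 CPM in spleen cells of that class, 254.4 and 358.2 CPM with both sets, and 42.4 and 46.8 CPM with the mitotic set only. Mcm3, Mcm5, Mcm6 and Mcm7, further subunits, and Pcna, the sliding clamp of the polymerases, followed the same order in both tissues, and Mcm4 did so in the spleen. In SI, Mcm4 had 919, 425.4 and 437.9 CPM in the 3 classes. Mcm6 and Pcna stood out in cells with neither set. Mcm6 had 10 or more reads in 40% of such SI cells and 54.8% of such spleen cells, and Pcna in 42.2% and 51.4%. For the other S-phase members this share ran from 0% to 24.4% in SI, and from 0.294% to 29.7% in the spleen.

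Members for DNA synthesis itself were high in cells with both sets. Rrm2 had 215.7 CPM in SI and 416.6 CPM in spleen cells with the S-phase set only, 848 and 988 CPM with both sets, and 220.7 and 328.8 CPM with the mitotic set only. Rrm1 (561.5, 1037 and 379.7 CPM in SI, 487.2, 1087 and 355.7 CPM in the spleen), Tyms, which makes thymidylate (188.03, 224.97 and 33.4 CPM in SI, 191.97, 257.9 and 79.98 CPM in the spleen), and Cdc45, which joins the helicase as it fires (124.4, 200 and 41.3 CPM in SI, 175.6, 229.5 and 48.4 CPM in the spleen), were likewise highest in cells with both sets in both tissues. Gins2, a further helicase cofactor, and Uhrf1, which carries DNA methylation to the new strand, were highest in S-phase-only cells. In all, 13 S-phase members in the spleen and 12 in SI were highest with the S-phase set only, and the rest with both.

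Among the mitotic members, Top2a, which untangles DNA, and Mki67, the Ki-67 antigen, were the most often read in spleen cells with the S-phase set only. Top2a had 10 or more reads in 71.4% of SI and 69.5% of spleen cells with the S-phase set only, and Mki67 in 42.9% and 54.2%. In SI, Cenpe, a kinetochore motor, equalled Mki67 at 42.9% of these 7 cells. In cells with the mitotic set Top2a and Mki67 were counted in at least 96.4%. Cdk1, the mitotic kinase, was counted in 28.6% and 50.8% of S-phase-only cells, and Ccna2, its cyclin A partner, in 14.3% and 33.9%. Birc5, a subunit of the chromosomal passenger complex, was counted in 14.3% and 30.5%, Aurkb in 14.3% and 25.9%, and Kif11, a spindle motor, in 28.6% and 24.1%. The other 16 mitotic members were counted in 0% to 42.9% of the SI and 1.75% to 14.04% of the spleen cells of this class. Among them, Cdc20, which activates the anaphase-promoting complex, was counted in 0% of the 7 SI and 14.04% of the spleen cells, Plk1, the Polo kinase, in 0% and 7.02%, and Cenpf, a kinetochore protein, in 0% and 1.75%.

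Cdc20 had the largest ratio of mitotic-only over double-set cells among the mitotic members in both tissues. It went from a mean of 282.1 to 738 CPM in SI and from 309.3 to 789 CPM in the spleen. Cenpf went from 262.4 to 557.5 CPM and from 252.8 to 591 CPM, and Ube2c, the ubiquitin-conjugating enzyme of the same complex, from 750 to 1113 CPM and from 604 to 1264 CPM. Ccnb1 and Ccnb2, the B-type cyclins, were also higher in mitotic-only cells, at 206.3 against 137.2 CPM and 704 against 497.5 CPM in SI, and at 241.7 against 141.9 CPM and 752 against 366.97 CPM in the spleen. Top2a (2077 against 1868 CPM in the spleen), Aurkb (453.7 against 413.03 CPM in the spleen), the kinase of the chromosomal passenger complex, and Bub1 (215.6 against 150.8 CPM in the spleen), a spindle checkpoint kinase, were the other way round. In SI these 3 genes were higher in mitotic-only cells, and Plk1, Aurka, Bub1b and Kif23 were higher with both sets, over 11 and 22 cells. In all, 20 of 23 mitotic members in the spleen and 19 in SI were highest with the mitotic set only. Ttk, a further checkpoint kinase, was the mitotic member least often counted in mitotic-only cells, in 54.5% of them in SI and 46.4% in the spleen.

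**Figure D4:**
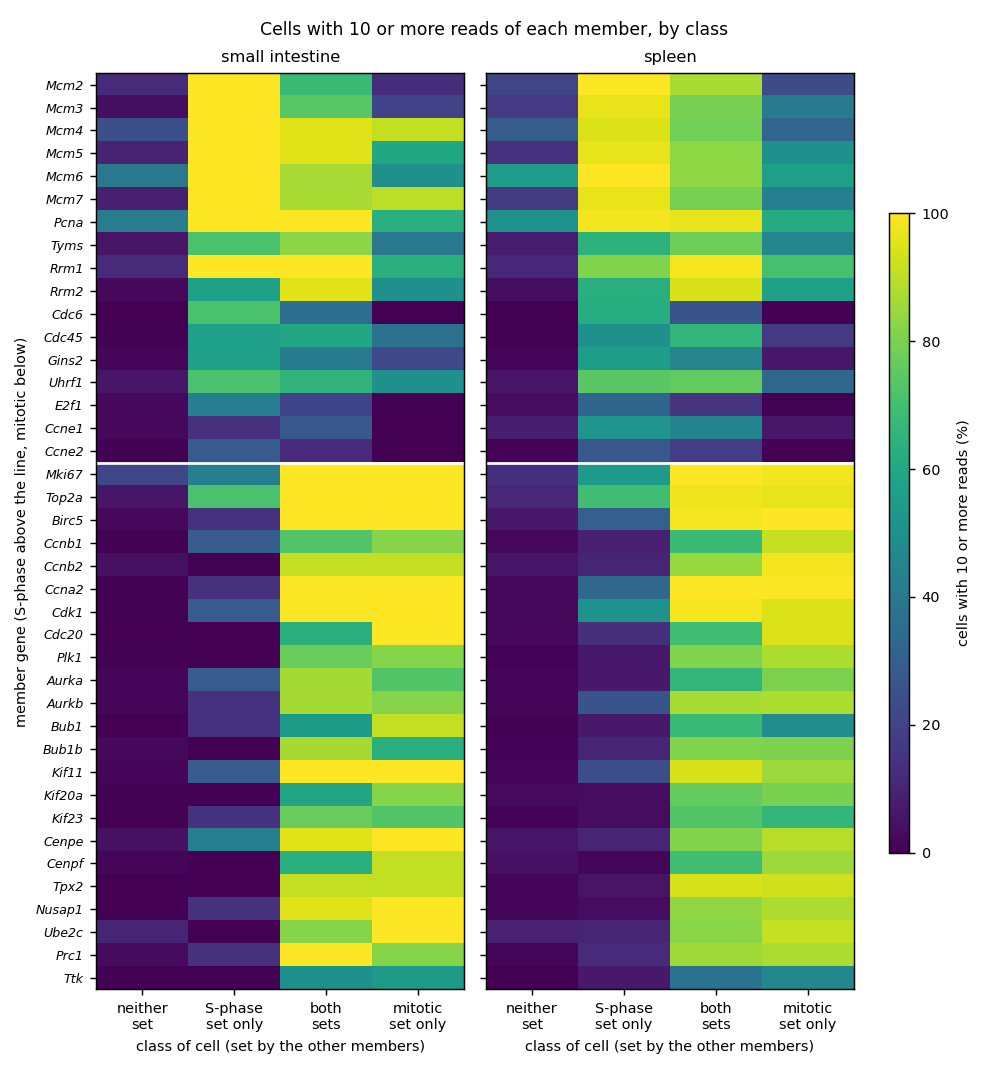
Share of cells (colour, %) with 10 or more reads of each member, in 4 classes of cells set by the other members, in SI (left) and the spleen (right). S-phase members above the white line are brightest in S-phase-only cells and several stay bright with both sets, and mitotic members below it are bright in the last 2 columns, with Top2a, Mki67 and Cdk1 already visible in S-phase-only cells.

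Other genes of the cycle, from lists that do not contain members, were arranged over the same classes. None of 37 further S-phase genes and none of 41 further mitotic genes was highest in cells with neither set, in either tissue. In the spleen 20 of the S-phase genes were highest with the S-phase set only and 17 with both, and 26 of the mitotic genes with the mitotic set only and 15 with both. In SI these numbers were 24, 13, 25 and 16. All SI values for the S-phase set only rest on 7 cells, against 59 in the spleen. Among the 8468 tested genes that are not members, 30.6% in the spleen and 23.3% in SI were highest in cells with neither set. With the S-phase set only, both sets and the mitotic set only, these shares were 29.9%, 19.6% and 19.96% in the spleen. In SI they were 30.9%, 23.98% and 21.8%. The regulators differed from gene to gene. Cdk4, the kinase of G1, and Tfdp1, the partner of E2F, were highest with the S-phase set only in both tissues, at 455.1 and 179.5 CPM in SI and 535.2 and 139.7 CPM in the spleen. E2f7 and E2f8, repressors of the E2F family, and Fbxo5, which restrains the anaphase-promoting complex, were highest with both sets in both tissues, at 114.8, 53.6 and 225.5 CPM in SI and 105.3, 113.2 and 292.1 CPM in the spleen. Cdc25b, a phosphatase that activates Cdk1, was highest with the mitotic set only, at 467.9 CPM in SI and 960 CPM in the spleen, against 3.23 and 77.95 CPM with neither. Ccnd2, a D-type cyclin, was lower in cells with the mitotic set. It had 679 and 1461 CPM with neither set, 660 and 1616 CPM with the S-phase set only, and 325.005 and 506.98 CPM with the mitotic set only. Cdkn1b, which encodes the inhibitor p27, was highest with neither set in both tissues.

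Cells with a set also had more genes detected. After thinning to 160000 reads, the median was 2893 genes in SI and 2965 in spleen cells with neither set, and between 3859 and 4467.5 genes in the classes with a set. The share of cells with a read of any of the 16 genes of other cell types was 25.9% in SI and 21.3% in spleen cells with neither set, 14.3% and 25.4% with the S-phase set only, 18.2% and 12.05% with both sets, and 27.3% and 21.8% with the mitotic set only. Cells were sorted singly, no doublet caller was run, and a part of doublets in these classes was not tested.

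In the means over all cells, every S-phase member was lower in SI than in each spleen set. This held for 17 of 17 S-phase members and 19 of 23 mitotic members (17 with TMM and 16 with DESeq2 factors), where 47.1% of the 8507 tested genes (mean of at least 10 CPM) did so. The log2 ratio of SI over spleen, from mean CPM with 1 added, had a median of -0.78 over the 16 tested S-phase members and -0.52 over the mitotic members, and -0.21 over all tested genes. Relative to all genes the S-phase median was -0.57 and the mitotic median -0.31. TMM and DESeq2 factors moved the median of all genes to -0.04 and -0.02, and such factors move members and other genes nearly alike. A log2 ratio of -1 or less was reached by 3 S-phase members, Ccne1, Mcm2 and Mcm3, and by no mitotic member, where 12.8% of tested genes did so. No member was at 1 or more, where 5.84% of genes were. Ccne2 was under the limit of 10 CPM and was not tested. A mean over cells does not separate fewer cells with a gene from less RNA in each.

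Among the genes of entry, Ccne1 had the lowest ratio of the members. Its mean was 12.8 CPM in SI, 42.9 in left p1, 71.6 in right p1 and 58.7 in p2 spleen, a log2 ratio of -2.09. It had 10 or more reads in 6.29% of SI cells and in 19.5% of spleen cells, and the lowest spleen set had 13.8%. Ccne2 had 4.89 CPM in SI and 5.59, 10.5 and 11.7 CPM in the spleen sets. E2f1 had 8.80 CPM in SI and 11.1, 13.3 and 13.9 CPM in the spleen sets (-0.49). Cdc6 had 20.5 CPM in SI and 28.7, 37.1 and 53.1 CPM in the spleen sets (-0.92). For Cdc6, Ccne2 and E2f1 the spleen sets differed in CPM from each other by more than SI did from the lowest of them.

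The Mcm subunits were unequal. Mcm2 had 77.6 CPM in SI and 185.02, 157.98 and 202.5 CPM in left p1, right p1 and p2 spleen (-1.22). Mcm3 had 85.1 CPM against 198.4, 175.1 and 177.6 CPM (-1.10), and Mcm6 had 264.6 CPM against 487.2, 563.2 and 463.8 CPM (-0.93). For these 3 the spleen sets lay close together and SI stood well below them. Mcm5 (-0.84) and Mcm7 (-0.64) lay between, and Mcm4 had 179.2 CPM in SI against 205.8, 228.99 and 215.2 CPM (-0.27), near the median of all genes. Mcm4 was counted in 40.6% of SI and 45.04% of spleen cells, and Mcm3 in 17.7% and 37.7%. The log2 ratios of the 6 subunits thus ran from -1.22 to -0.27. Whether this exceeds the spread between animals cannot be tested here.

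The remaining S-phase members had log2 ratios from -0.47 to -0.82. Rrm1 had 210.6 CPM in SI and 286.9, 269.8 and 320.7 CPM in the spleen sets (-0.47), and Rrm2 136.8 CPM against 227.8, 227.1 and 263.96 CPM (-0.80). Pcna (-0.69), Tyms (-0.74), Uhrf1 (-0.69), Gins2 (-0.75) and Cdc45 (-0.82) were similar. Against p2 spleen alone, the median was -0.96 over the S-phase and -0.66 over the mitotic members, and 7 S-phase members and 1 mitotic member (Aurkb) had a ratio of -1 or less, where 13.9% of genes did and 7.15% were at 1 or more. The p2 spleen set was itself the highest of the 4 sets for 31 of 40 members, against 31% of genes. In p2 over p1 spleen cells the medians were 0.22 over S-phase and 0.32 over mitotic members, none past a ratio of 1 in either direction (2.39% of genes higher, 3.16% lower). In left over right p1 cells they were -0.18 and 0.20, again with 0 members past that ratio (2.02% of genes higher, 2.39% lower).

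Of the cyclins and the Cdk1 kinase, Ccna2 had 265.2 CPM in SI and 435.7, 415.1 and 530 CPM in the spleen sets (-0.79), Ccnb1 31.4 CPM against 48.2, 41.8 and 58.98 CPM (-0.64), Ccnb2 123.9 CPM against 166.8, 137.7 and 172.7 CPM (-0.36), and Cdk1 144.9 CPM against 198.9, 202.1 and 218.004 CPM (-0.51). SI was below the 3 spleen sets for all 4, by little for Ccnb2. With TMM or DESeq2 factors, under which SI was below all spleen sets for 36.4% and 35.4% of all genes, Ccnb2 and Birc5 were no longer below, nor was Tpx2 with DESeq2 factors. The 17 S-phase members stayed below with either. The exit genes Cdc20 (82.01 CPM in SI against 137.1, 110.3 and 154.5 CPM, -0.70) and Ube2c (-0.42) were also lower.

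The mitotic kinases did not share 1 ratio. Aurkb had 69.7 CPM in SI and 134.3, 96.4 and 140.9 CPM in the spleen sets (-0.82), the lowest ratio of the mitotic members. Aurka, which acts at the spindle poles, had 64.4 CPM in SI and 64.2, 75.6 and 66.3 CPM in the spleen sets (-0.09), the highest ratio of the members, and SI lay within the spleen sets. With TMM or DESeq2 factors the ratios of Aurka and Kif11 were above 0 and those of the other 38 members below it. Plk1 (-0.57), Bub1b (-0.63) and Ttk (-0.32) were below all spleen sets, and Bub1 (-0.30) was not, with 41.6 CPM in SI against 40.9, 39.5 and 74.1 CPM.

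Among spindle and chromosome genes, Kif11, the motor that pushes the poles apart, had 147.9 CPM in SI and 137.1, 145.9 and 218.6 CPM in the spleen sets (-0.17), and Prc1, which bundles microtubules of the midzone, 100.5 CPM against 105.4, 99.8 and 147.7 CPM (-0.22). These 2 genes, with Aurka and Bub1, were the members for which SI was not below all spleen sets in CPM. The other genes of this group, Kif20a, Kif23, Cenpe, Cenpf, Tpx2, Nusap1 and Birc5, had ratios from -0.35 to -0.63. Mki67 had 322.6 CPM in SI and 521.8, 431.1 and 621 CPM in the spleen sets (-0.70), and Top2a 396.97 CPM against 544.9, 484.01 and 709 CPM (-0.54). Mki67 was counted in 37.1% of SI and 39.7% of spleen cells, a far smaller gap than in its mean.

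**Figure D5:**
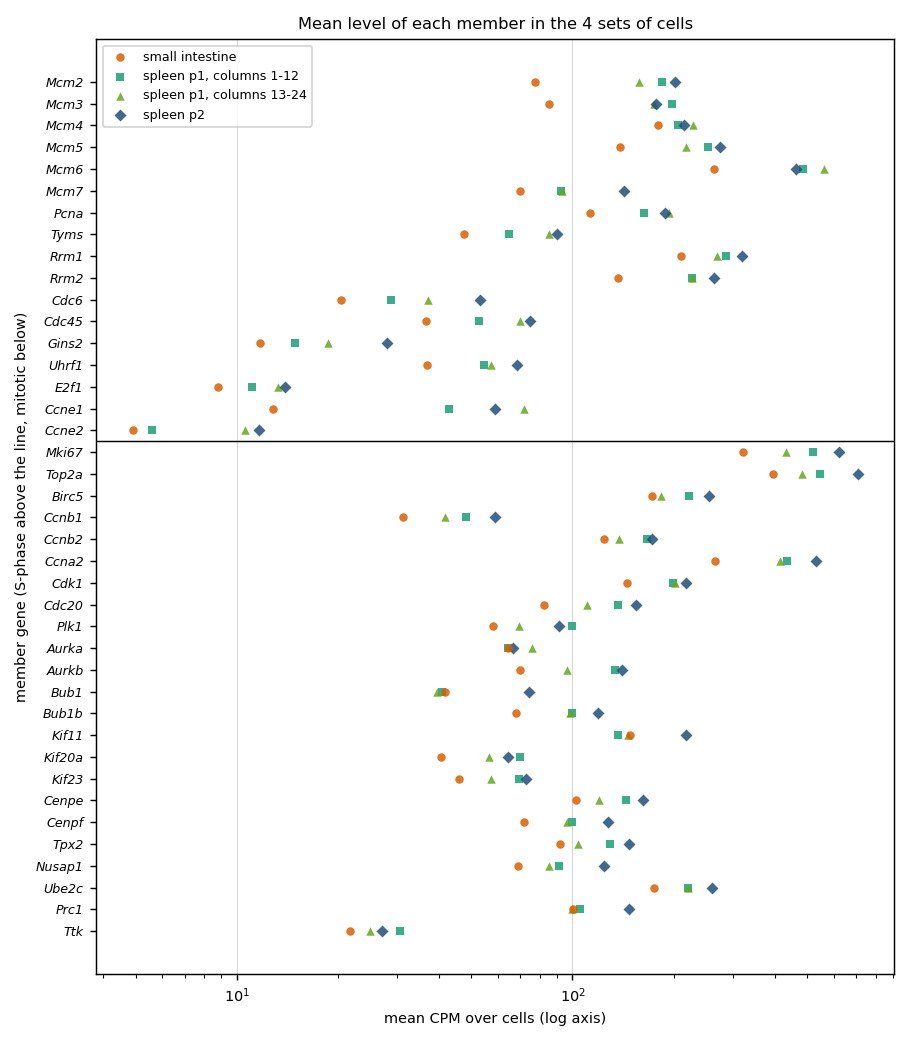
Mean CPM of each member (x axis, log scale) in SI (circles) and the left p1, right p1 and p2 spleen sets (squares, triangles and diamonds). SI is left of all spleen marks for the 17 S-phase members and 19 of 23 mitotic members, and Aurka, Bub1, Kif11 and Prc1 are the exceptions on this scale, joined by Ccnb2 and Birc5 with TMM factors and also by Tpx2 with DESeq2 factors.

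Cells of the same class were then compared between tissues. Among cells with the mitotic set (33 in SI), the log2 ratio of SI over spleen had a median of -0.07 over mitotic members, and they ranged from -0.32 to 0.31. For Cdk1 the means were 748 CPM in SI and 734 CPM in the spleen, and for Ccna2 1383 and 1728 CPM. Among cells with the S-phase set (29 in SI), the median was -0.28 over S-phase members and 0.28 over mitotic members. Ccne1 kept its low ratio in this class, with 48.2 CPM in SI and 154.3 CPM in the spleen (-1.66), and Mcm6 had 551.7 and 958 CPM (-0.80). Over all tested genes the medians were -0.13 and -0.12 in the 2 kinds of cells. Among cells with neither set the median was -0.58 over S-phase members, -0.95 over mitotic members and -0.23 over all genes. Here Mcm2 had 21.4 CPM in SI and 68.3 CPM in the spleen (-1.63), Mcm3 13.3 and 53.7 CPM (-1.94), and Cdk1 0.722 and 10.4 CPM (-2.73). These classes were set by the same members, which brings levels within a class close together, and many members are near 0 in cells with neither set, so nothing is read from the difference between classes. Within p2, these medians were 0.01 over mitotic members in mitotic-set cells, -0.27 over S-phase members in S-phase-set cells, and -0.51 and -0.93 in cells with neither set.

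Most of the further genes of the cycle were also lower in SI. SI was below all 3 spleen sets for 30 of 37 further S-phase genes and 32 of 41 further mitotic genes. It was above all of them for 1 and 0. Of all tested genes, 47.1% were below and 23.8% above. Medians of the log2 ratio were -0.64 and -0.50. The S-phase list had 11 genes at -1 or less, among them Cdca7 (-2.69) and Rfc4 (-1.54), a clamp loader subunit. Of all tested genes, 12.8% were at -1 or less. Of 22 tested regulators, 16 were below all spleen sets and 4 above, and the 4 above were not more than the share over all genes. E2f2 (21.5 CPM in SI, 61.9 CPM in the spleen, -1.48) and Cdc25b (71.5 and 244.1 CPM, -1.76) were among the low ones. Cdkn1a, which encodes the inhibitor p21, had 250 CPM in SI and 35.998, 58.3 and 64.02 CPM in the spleen sets (2.22), Rbl2, a pocket protein of resting cells, 351.8 CPM against 125.8, 173.004 and 110.6 CPM (1.36), Rb1, the retinoblastoma protein, 103.7 CPM against 39.6, 36.4 and 62.3 CPM (1.15), and Cdkn1b 94.6 CPM against 46.3, 49.9 and 63.1 CPM (0.82). Other inhibitors and pocket proteins of the list were not above, with Rbl1 (-1.06) and Cdkn2c (-0.62) below all spleen sets and Cdkn2d within them. By class, Cdkn1a had 284.03 CPM in SI cells with neither set, 72.5 CPM with the S-phase set only, 192.6 CPM with both sets and 62.5 CPM with the mitotic set only, and in the spleen 44.7, 46.2, 86.4 and 60.05 CPM. The tissues did not share an order.

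The genes most like the sums were named by the mean Spearman correlation over the 4 sets of cells. For the S-phase sum these were Lig1 (0.68), the ligase of replication, Gmnn (0.62), Tipin (0.61), 2810417H13Rik (0.60), Prim1 (0.60), Clspn (0.60), Fignl1 (0.59) and Dnmt1 (0.58). For the mitotic sum they were Stmn1 (0.76), Cdca8 (0.75), 2810417H13Rik (0.72), Cks1b (0.70), Hmgb2 (0.69), Tacc3 (0.69), Pttg1 (0.69) and Aspm (0.68). Of these, 2810417H13Rik, Fignl1 and Dnmt1 were on none of the lists of cycle genes used here. The nuclear RNA Malat1 had the lowest correlation with both sums, at -0.39 and -0.43. CPM is a share of the reads of a cell, so a gene can have a lower share where other genes take more.

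Cyclone, which assigns a phase from pairs of genes and with which the study filtered out dividing cells, called 30 SI cells G2M, and the mitotic set was held by all 30 of them and by 98.3% of the spleen cells so called. It called 5 SI and 27 spleen cells S, of which 4 and 24 held a set. Of the cells called G1, 6 cells in SI (4.29%, 1.59% to 9.09%) and 59 in the spleen (14.7%, 11.4% to 18.6%) held a set, with 11.2%, 15.2% and 18.03% in left p1, right p1 and p2 spleen. All 6 in SI and 54 of the 59 in the spleen held the S-phase set only. Cells called G1 thus still contained cells with most S-phase members. Their share was higher in the pooled spleen than in SI, with intervals apart, but the left p1 interval (6.40% to 17.8%) overlapped that of SI. These shares were not read after thinning, and the part of depth in them was not tested.

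Sets were finally related to other genes of the same cells. With a Foxp3 read, 40% of 15 SI cells held a set (16.3% to 67.7%), against 21.3% of cells without (15.2% to 28.4%). In left p1 the shares were 38.7% and 24.2%, in right p1 41.5% and 30.1%, and in p2 spleen 85.7% of 14 cells (57.2% to 98.2%) and 38.8% without (31.3% to 46.7%). The share was higher with a Foxp3 read in all 4 sets of cells, and the intervals were apart in p2 spleen only. Cells with a set also had more genes detected, Foxp3 was not read after thinning, and the part of gene detection was not tested. By Il10 level, in 3 equal bins, a set was held by 33.9%, 22.4% and 12.1% of SI cells from lowest to highest (22.1% to 47.4% in the lowest, 4.99% to 23.3% in the highest). In p2 spleen these shares were 35% (23.1% to 48.4%), 41.7% and 50.8% (37.5% to 64.1%), in left p1 32.8%, 38.3% and 30%, and in right p1 32.3%, 40.98% and 24.6%. The intervals of the lowest and highest bins overlapped in all 4 sets of cells, so no direction is read from them.

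Cells were also arranged by the number of co-inhibitory receptor genes with a read, out of Pdcd1, Lag3, Tigit, Havcr2 and Itga2. In the spleen a set was held by 25.96% of cells with 0 to 2 of them (17.9% to 35.5%). The share was 32.2% with 3 and 48.8% with 4 or 5 (41.1% to 56.6%). In SI a set was held by 1 of 18, 13 of 64 (20.3%) and 26 of 93 cells (27.96%). In p2 spleen the lowest and highest bins had 23.7% (13.6% to 36.6%) and 62.5% (47.4% to 76.05%). Intervals of these bins were apart in the pooled spleen and in p2 spleen, and overlapped in left p1, right p1 and SI. With receptors and sets both read after thinning to 160000 reads, the spleen shares were 26.7%, 31.5% and 48.4% and the SI shares 8.70%, 22.4% and 27.1%. In left p1 the thinned share was 31.7% at 0 to 2 and 28.3% at 3. Among thinned spleen cells with neither set, median genes detected also went from 2854 to 2960.5 to 3107.5 over the 3 bins, and the part of gene detection in this relation was not tested.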

How the data were processed

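The data were single-cell SMART-seq2 libraries of sorted IL-10 reporter CD4+ T cells, 190 from the small intestine and 574 from the spleen. The deposited values were whole-number read counts per gene for each cell, and the authors aligned the reads with STAR. The labels name mm10 and the study's methods Mm8, and the counting tool is not given in the sources used here. The reporter row was left out and 2 duplicated gene names were summed. Cells with at least 160000 reads were kept, 175 from the small intestine, and 181, 184 and 179 in the left p1, right p1 and p2 spleen sets (161141 to 622997 reads a cell). CPM scaled the counts of each cell to the same total over genes. Genes with a mean of 10 CPM entered log2 ratios with a pseudocount of 1. The labels name no animal, so the 2 tissues were compared without a test or p-value, and cells were not treated as replicates. Members are named throughout, and the genes most like each sum were the 8 with the highest mean correlation. The members and lists were chosen with earlier results of these data known. Analyses used python 3.11.15, numpy 2.4.6, pandas 2.3.3 and scipy 1.17.1. In R 4.3.3, TMM factors (edgeR 4.0.16) and DESeq2 1.42.0 size factors were taken on counts summed per set of cells, and cyclone was run in scran 1.30.0 with 635 of its 667 marker genes matched. The ratios were tested on simulated data. Scaling of single members and thinning in the receptor comparison were added after seeing the data. Reads were not tied to molecules by identifiers, and intervals cover counting error only.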

Additional observations from a re-analysis of the deposited data

Results flagged for a closer look

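Cells with fewer than 160000 reads entered no comparison, and member sets were read in some of them. Of 30 such spleen cells (median 126664 reads), 4 held the S-phase set (13.3%, interval 3.76% to 30.7%), 7 the mitotic set (23.3%, 9.93% to 42.3%) and 9 either set (30%, 14.7% to 49.4%). Of 15 such SI cells (median 49359 reads), 2 held the S-phase set and none the mitotic set.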

How the results depend on the processing

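Alternative shares were compared with the counting interval of the reported share, and alternative medians with a fixed fold range around the reported median. Of 50 alternative values, 35 stayed within these limits and 15 moved further. Only the medians could change direction, since a share of a single tissue has none. The spleen was higher in 18 of 18 alternative pairs of shares, and both medians of the log2 ratio were below 0 in 14 of 14 alternatives. The S-phase set in the spleen was held by 22.1% of cells after thinning, 22.4% with 20 or more reads for a member, 37.9% with 6 of 17 members needed and 16.9% with 12. With 12 of 17 and 16 of 23 members needed, the S-phase set was held by 10.3% of SI cells and the mitotic set by 21.5% of spleen cells. With the 95th percentile as background limit, the S-phase sum lay above it in 64.6% of SI and 83.1% of spleen cells, and the mitotic sum in 33.1% and 45.4%. With the highest cell as limit the S-phase sum gave 16% and 30.1%, and the mitotic sum 26.8% in the spleen. The median of the mitotic members was -0.35 with TMM and -0.33 with DESeq2 factors, which moved all genes alike. No paired analysis was possible because each sample is 1 cell and its number only names a well. Depth limits members with few reads, and 1 sample per tissue leaves variation between mice unmeasured.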

Other observations

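E2f1 was also arranged by the number of co-inhibitory receptor genes with a read (Pdcd1, Lag3, Tigit, Havcr2 and Itga2). In the spleen E2f1 had a read in 7.69% of cells with 0 to 2 of them (3.38% to 14.6%), 8.52% of cells with 3 (5.48% to 12.5%) and 14.1% of cells with 4 or 5 (9.26% to 20.3%). In SI the numbers were 0 of 18, 5 of 64 (7.81%) and 9 of 93 cells (9.68%), and the intervals of neighbouring bins overlapped in both tissues. In left p1 the shares were 8.57%, 7.29% and 10%, and in right p1 10%, 7.84% and 18.1%, so neither rose at each step. In p2 spleen they were 6.78%, 11.1% and 12.5%. The part of gene detection in these shares was not tested.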
